A study of Homo sapiens with 102 samples.

Results

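The codes T015 to T029 are 15 of 128 position codes that mark the centromeric repeat units (CenU) of a human artificial chromosome (HAC). A position code is a short designed sequence placed once in each repeat unit, so that a sequenced fragment can be assigned to the unit it came from. In the input DNA these 15 units stand, in number order, just before unit T030, where the domain dense in CENP-A begins in the line HAC 4-65. The members were chosen by their reads: a code was kept where its median share over the 49 HAC 4-65 libraries was at least 0.1% of all CenU reads, which left 10 of the 15, beside 75 of 128 CenU codes kept in all, and the stretch itself was picked for its CENP-A in untreated cells. They were T015 to T019 and T025 to T029. The codes T020 to T024 were not carried. HAC arrays are rearranged against their input, and the order of the units along HAC 4-65 itself was not analysed here.

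All libraries came from HT1080, a human fibrosarcoma cell line, carrying 1 of 6 HACs (HAC 1-20, 1-8, 4-2, 4-65, 3-6 and 4-49). Chromatin immunoprecipitation (ChIP) was done with antibodies to CENP-A, H3K4me2, H3K14ac, H4K8ac, H4K20me1, H3K36me2 and H3K9me3, and the codes in the recovered DNA were amplified by competitive PCR and sequenced. HAC 4-65 had all 7 antibodies in 7 conditions: untreated cells, cells blocked with thymidine at the G1/S border, cells arrested in mitosis with colcemid, cells 3 h after release from colcemid, and cells transfected with a control siRNA (siControl), an siRNA to KAT7 (siKAT7) or an siRNA to HJURP (siHJURP). Each group was 1 library made from a pool of 3 ChIP reactions of 1 cell line, so no biological replicate exists and the intervals below cover counting error only. KAT7 and HJURP transcripts were not measured in these libraries, so the depletion was not checked here.

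CENP-A takes the place of histone H3 in the nucleosomes of active centromeres, and HJURP is the chaperone that deposits it after mitosis. KAT7 is a histone acetyltransferase linked to H3K14 acetylation and to the upkeep of CENP-A on artificial arrays. H3K9me3 is the classical heterochromatin mark, H4K20me1 is found on nucleosomes at kinetochores, and H3K4me2, H3K36me2 and the acetylated residues are associated with open or transcribed chromatin. A border between CENP-A chromatin and its flank therefore can be read as a fall of CENP-A against a rise of marks of the surrounding chromatin.

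The codes at the ends of the carried stretches are shown because the results turn on them, each 5′ to 3′ with the 6 positions that vary between codes in capitals (positions 9, 10, 14, 15, 19 and 20, counted from the first base).
T015: ggggaaaaAAcccCGtttCGggg
T019: ggggaaaaATcccAGtttAGggg
T020: ggggaaaaATcccACtttACggg
T024: ggggaaaaATcccTCtttTCggg
T025: ggggaaaaATcccGAtttGAggg
T028: ggggaaaaATcccGCtttGCggg
T029: ggggaaaaATcccCAtttCAggg
T030: ggggaaaaATcccCTtttCTggg
Every member had 4 other codes at a distance of 1 base, and the 15 codes held between 10 and 14 G or C bases. Reads on the codes not carried amounted to a median of 0.551% to 1.76% of the reads on their carried partners at 1 base distance, which is the level that misassigned reads could reach.

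The 49 HAC 4-65 libraries held between 1264 and 541943 CenU reads (median 53131), and 4 of them had under 10000 matched reads. The CENP-A libraries of the siControl (1264 CenU reads), thymidine (2599) and siHJURP (5319) cells were shallow, against 132561 CenU reads in untreated cells. The members together took 4.96% to 10.5% of the CenU reads. T015 had the highest median share (range 0.574% to 4.77%), and T025 the lowest of those kept at 0.371%. T020, the first code left out, had 0.0532%. The 5 codes left out summed to 0.0376% to 0.700% of CenU reads, with T021 at 0.207% and T023 at 0.355% in the untreated H3K14ac library as their highest shares. In HAC 1-20, which does not carry this stretch, the 15 codes had median shares of 0.00973% to 0.0219%. The order of shares reflects both copy number and recovery, which cannot be told apart without input DNA.

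To compare units that may differ in copy number, the CENP-A level of a code was taken as the log2 of its CENP-A reads minus the mean log2 of the reads of the 6 marks in the same condition, set to 0 at the median carried code. A mark was set against the other 5 marks in the same way, so that opposite signs between marks are partly built in. The 5 codes T025 to T029 that adjoin T030 are called the near run, and T015 to T019 the far run. They were compared with the 21 carried codes T030 to T050 (the domain) and the 13 carried codes T002 to T014 (the edge).

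In untreated cells CENP-A climbed through the near run toward the domain. The CENP-A level was −1.70 at T025, −0.18 at T026, 0.27 at T027, 0.79 at T028, 0.68 at T029 and 0.96 at T030, a slope of 0.57 log2 per code over the near run. As shares of CenU reads these codes had 0.126%, 0.533%, 0.822%, 0.683%, 0.944% and 1.02% of the CENP-A library. The counting intervals of T028 (0.67 to 0.90) and T029 (0.59 to 0.78) overlapped, so their order was not resolved. T027, T028 and T029 lay within the range of the domain codes, which ran from 0.24 at T047 to 2.01 at T036, while T025 and T026 lay below it.

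The far run was lower on average and sloped the other way. Its CENP-A level was −0.74 at T015, −0.23 at T016, −0.29 at T017, −1.21 at T018 and −1.82 at T019, and none of these lay in the range of the domain. T016 and T017 had the same number of reads (714 each), and their intervals overlapped. The near run averaged 2.49-fold and the far run 4.41-fold below the domain, and they stood 6.40-fold and 3.61-fold above the edge. Untreated values helped to choose these codes, so they are a description and carry no test.

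The codes next to the missing units were thus the poorest in CENP-A on both sides. T025 had 167 CENP-A reads in untreated cells, 2.68% of the reads on its carried 1-base partners, and T019 had 318 reads, 3.42%, whereas T029 had 28.1%. For the codes not carried this percentage was at most 1.91%. T025 and T019 were thus nearer to the codes not carried than any other member, and the part of misassigned reads in their values was not tested.

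The marks changed along the same codes. H3K9me3 was highest at the members beside the gap, with a level of 1.17 at T019 and 0.75 at T025, and it fell along the near run to −0.08 at T026, −0.16 at T027, −0.53 at T028, −0.64 at T029 and −0.78 at T030. H4K20me1 rose in the other direction, from −2.10 at T025 through −0.21, 0.16 and 0.31 to 0.84 at T029 and 1.06 at T030. H3K36me2 was above the median carried code at T016 to T019 (0.65 to 1.25) and at T025 (0.53), and near it at T029 (0.01).

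The acetylated residues and H3K4me2 had no such even course. H4K8ac was highest at T028 (0.95), the second highest of all 75 carried codes, and lowest in the near run at T026 (−0.87). H3K14ac was 0.73 at T025 and −1.49 at T028, the lowest of the 75, so that it ran against H4K8ac at these codes. H3K4me2 stayed between −0.19 and 0.39 at 9 members and was −0.91 at T029.

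Set against the domain, the near run had 2.76-fold less H4K20me1 (−1.47 on the log2 scale) and more H3K36me2 (1.06) and H3K9me3 (1.14). The far run showed larger differences of the same signs, with −1.74 for H4K20me1, 1.55 for H3K36me2 and 1.51 for H3K9me3. For H4K8ac the differences were −0.26 and −0.86, and for H3K14ac −0.62 and −0.74. H3K4me2 differed from the domain by only 0.15 and 0.28.

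The same differences were then taken over the 6 treated conditions, with the condition as the unit. The limit on the median share drew on these libraries too, and earlier results of them were known when the codes were chosen, so the tests are not an independent check of the untreated pattern. Flank and domain were set apart by the CENP-A of this line, so the sign of their CENP-A difference was largely set by that choice. The near run stayed below the domain in CENP-A in 6 of 6 conditions, by −0.90 ± 0.39 (mean ± SD, log2). The far run was lower still, at −2.33 ± 0.44, again in 6 of 6. Both differences had the smallest p that an exact two-sided sign-flip permutation test over 6 values can give (p = 0.03125). After Benjamini-Hochberg adjustment over the 21 tests made, the exact tests gave an adjusted p of 0.0505 for each, and none of the 21 passed 0.05, with 13 of them below 0.05 unadjusted. The conditions share 1 cell line, so the p-values describe these libraries.

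Of the marks, H3K9me3 was higher than in the domain by 1.29 ± 0.30 in the near run and 1.56 ± 0.47 in the far run, and H3K36me2 by 1.07 ± 0.53 and 1.12 ± 0.39. H4K8ac was lower by −1.45 ± 0.72 and −1.20 ± 0.71. These 6 differences kept their sign in 6 of 6 conditions (exact permutation p = 0.03125 each). H4K20me1 was lower in the far run in 6 of 6 conditions (−1.78 ± 0.61, exact permutation p = 0.03125), but in the near run in 5 of 6 (−0.76 ± 0.62, exact permutation p = 0.0625). H3K4me2 was higher in the far run (0.59 ± 0.76, 6 of 6, exact permutation p = 0.03125), with 2.13 in the released cells and a mean of 0.28 without them, and gave 0.17 ± 0.59 in the near run (exact permutation p = 0.531). H3K14ac did not pass for either run, with −0.31 ± 0.84 (exact permutation p = 0.406) and −0.29 ± 0.41 (exact permutation p = 0.219). The adjusted p was at least 0.0505 throughout.

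The gradient within the near run was also seen in the treated cells. The slope of CENP-A was 0.49 ± 0.17 log2 per code and positive in 6 of 6 conditions, that of H3K9me3 was −0.57 ± 0.22 and that of H3K36me2 −0.33 ± 0.17, both negative in 6 of 6 (exact permutation p = 0.03125, adjusted p = 0.0505 for each of the 3). The slopes of H4K8ac (0.57 ± 0.64) and H4K20me1 (0.42 ± 0.57) were positive in 5 and 4 of 6 conditions and did not pass (exact permutation p = 0.0938 and 0.125).

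T025 carried part of this slope. Over T026 to T029 alone the CENP-A slope was 0.31 in untreated cells and positive in 6 of 7 conditions, with −0.16 as the lowest. The H3K9me3 slope over these 4 codes was still negative in 7 of 7 conditions (median −0.35), but that of H3K36me2 in only 5 of 7 (median −0.07). This comparison was added after the values had been seen.

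The far run faced the gap with the opposite slope. Over T015 to T019 the CENP-A slope was negative in 7 of 7 conditions, from −0.55 to −0.09 per code (median −0.37), while the slopes of H3K9me3 (0.12 to 1.06) and H3K36me2 (0.22 to 0.92) were positive in 7 of 7. T019 was the lowest of the 10 members in CENP-A in 5 of 7 conditions, T025 in siControl cells and T017 in colcemid cells. The mean of T019 and T025 lay below that of the other 8 members in CENP-A by −2.34 to −1.08 and above it in H3K9me3 by 0.99 to 2.64, in each of the 7 conditions. These 2 codes were singled out after their values had been seen, so no test is given.

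Single codes differed in how far they moved between conditions. T029 took 0.944% of the CENP-A library in untreated cells, 1.54% with thymidine, 1.38% with colcemid, 1.76% after release, 1.34% with siControl, 1.59% with siKAT7 and 0.902% with siHJURP. Its CENP-A level was above the median carried code in all 7 (0.68 to 2.67), and T028 was above it as well (0.42 to 1.73). T019 took 0.240%, 0.0770%, 0.330%, 0.0343%, 0.316%, 0.150% and 0.0752% in the same order, with a level of −4.60 to −1.47. T019 was therefore below T029 in every condition without overlap of the 2 ranges. Other members changed sign between conditions, with CENP-A levels of −2.02 to 1.36 at T027, −2.47 to 0.27 at T017 and −1.34 to 1.02 at T018. The highest levels of T017, T018 and T029 came from released cells, where some marks had few reads on them. T018 had 5, 6 and 2 reads in H3K4me2, H4K8ac and H4K20me1, and T017 had 5 each in H4K8ac and H4K20me1. T029 had 5 in H3K4me2 and 1 in H4K8ac. T018 took 0.483% of the CENP-A library after release and 0.578% with colcemid. The part of the mark reads in these levels was not tested.

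H3K9me3 at T019 ranged from 0.84 to 3.09 (median 1.17) and at T025 from 0.64 to 2.64 (median 1.18). At T029 it ranged from −1.36 to −0.16 and at T030 from −1.90 to −0.08, so that the codes facing the gap and those at the domain did not overlap in this mark. T028 was above the median carried code in H4K8ac in all 7 conditions (0.15 to 2.38), and T029 in H4K20me1 (0.11 to 3.91). T015, at the outer end, was below it in H3K36me2 in all 7 (−1.53 to −0.17).

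A border was placed in each condition at the midpoint between the mean CENP-A levels of the edge and of the domain. In untreated cells 6 of the 10 members were above the midpoint (T016, T017 and T026 to T029). The unbroken run above it, followed down from T034, ended at T026, which is the border code. In thymidine, colcemid, siControl and siKAT7 cells the border code was again T026, with 5, 6, 6 and 6 members above the midpoint. T026 to T029 were above it in all 5 of these conditions. The members of the far run that were above it varied between 1 and 2 per condition.

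Cells released from colcemid and siHJURP cells gave another border code. After release T027 fell to a level of −2.02 (interval −2.33 to −1.72) while T025, T026, T028 and T029 were above the midpoint, so the border code was T028, with 6 members above. By reads alone, CENP-A fell from colcemid to release by −1.10 at T026 and −1.06 at T027. The H3K4me2 and H4K8ac release libraries held 4 and 7 reads at T026, against 256 and 224 at T027. The part of these low mark reads in the level of T026 was not tested. In siHJURP cells 9 of 10 members were above it, all but T019, and the border code was T025. T025 had 8 CENP-A reads there and a level of −0.47 (−1.48 to 0.53), and its interval, like those of T015, T017 and T018, spanned the midpoint of −0.81. With 1 average of all marks and conditions in place of the marks of the same condition, siHJURP cells had 8 members above and the border at T026, colcemid cells had the border at T025, and the release border stayed at T028.

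In siHJURP cells the CENP-A level and the CENP-A reads of the near run gave different pictures. The difference in level between near run and domain was −0.20 there against −1.04 in siControl cells, but CENP-A reads alone changed by only −0.15 (95% counting interval −0.80 to 0.49) in the near run against the domain. The average near-run code had 41.6% of the CENP-A reads of the average domain code in siHJURP cells, and between 38.4% and 49.6% over all 7 conditions. The far run reached 52.1% in siHJURP cells and 24.8% to 37.1% in the other 6.

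Changes between conditions were next taken from reads alone, as the log2 ratio of the near run minus that of the domain, in which copy number cancels. The difference between siControl and untreated cells served as the yardstick for a change without a specific treatment. For CENP-A this yardstick was 0.23 (−0.36 to 0.81). From thymidine to colcemid CENP-A changed by 0.09 (−0.25 to 0.43), and from colcemid to release by −0.31 (−0.44 to −0.17), the only one of the 5 CENP-A comparisons of the near run whose interval excluded 0. That step was larger than the yardstick value but within its interval. Release against thymidine gave −0.22 (−0.57 to 0.13) and siKAT7 against siControl −0.10 (−0.68 to 0.49). The siRNA intervals were wide because siControl had few CENP-A reads. Set against untreated cells, siKAT7 gave 0.13 (0.04 to 0.22).

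The CENP-A of the far run was taken in the same way. With siKAT7 it fell by 0.69 on the log2 scale against the domain (−1.19 to −0.19) relative to siControl, and by 0.19 (−0.29 to −0.09) relative to untreated cells. The siControl library itself differed from untreated cells by 0.50 (0.00 to 0.99). Relative to untreated cells the far run of siHJURP cells gave 0.56 (0.23 to 0.89), and relative to siControl 0.07 (−0.52 to 0.66).

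Single codes were called changed where they moved over 2-fold against the median carried code with a counting interval off 0. From thymidine to colcemid, over the 7 antibodies, 6 of 70 member values were called higher and 12 lower, where 10.7% and 11.5% of all carried codes were called. In H4K8ac, a mark of acetylated chromatin, T025, T026, T027 and T029 were called lower, where 18.7% of carried codes were, and T018 higher, where 14.7% were. H4K8ac of the near run fell against the domain by −0.84 (−1.05 to −0.64) and that of the far run rose by 0.88 (0.73 to 1.03), with yardsticks of −0.45 and 0.17. H4K20me1 rose at T015, T017, T019 and T025, where 36% of carried codes rose, and fell at T027, T028 and T029, where 22.7% fell. Against the domain the far run rose by 1.80 (1.70 to 1.90) and the near run by 0.53 (0.42 to 0.63), past yardsticks of 0.29 and 0.11. The near-run value leaned on T025, which changed by 2.20 against the median carried code. T026 gave −0.05, T027 −1.49, T028 −1.47 and T029 −1.06, and the near run without T025 was not computed.

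As mean log2 ratios, H3K14ac and H3K4me2 of both runs also rose against the domain, H3K14ac by 1.19 (0.84 to 1.55) in the near run and 0.87 (0.59 to 1.16) in the far run, and H3K4me2 by 0.64 (0.50 to 0.78) and 1.00 (0.87 to 1.13). By mean reads per code the H3K14ac rise of the near run was small, from 73.5% of the domain with thymidine to 76.8% with colcemid. The far run had 115% and 152%. H3K36me2 rose by 0.23 in both runs, past its yardsticks of −0.02 and 0.11. In CENP-A T017 was called lower and no member higher, where 1.39% of carried codes were called in either direction. In H3K4me2 T019 was called lower, where 12% of carried codes were, and no member higher, where 6.67% were. In H3K14ac T017 was called higher, where 16% were, and T018 (−4.08), T028 and T029 lower, where 24% were, with an SD of 2.19 between the log2 ratios of the domain codes. No member was called in H3K9me3 or H3K36me2, where 0% to 1.33% of carried codes were. Their largest rise and fall were 0.29 at T026 and −0.65 at T016 in H3K9me3, and 0.48 at T028 and −0.42 at T016 in H3K36me2. The H3K9me3 difference between near run and domain changed by 0.00 (−0.12 to 0.12).

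After release from colcemid 17 of 70 member values were called higher and 21 lower, where 16% and 20.6% of carried codes were. These counts rest in part on uneven libraries. Against colcemid the log2 ratios of the 21 domain codes had an SD of 3.90 for H3K4me2, 2.42 for H4K8ac, 2.18 for H3K14ac and 1.86 for H4K20me1, compared with 0.45 for CENP-A, 0.69 for H3K36me2 and 0.88 for H3K9me3. For H3K14ac the scatter came with the colcemid library, since release against thymidine had an SD of 0.69. The part of this scatter in the member values was not tested. In the more even libraries T019, T026 and T027 fell in CENP-A, where 9.46% of carried codes did, and T017 rose, where 6.76% did. H3K9me3 of the near run fell against the domain by −0.61 (−0.71 to −0.50), with a yardstick of −0.01. The yardstick of the far run in this mark was 0.42 (0.34 to 0.50). T029 was called lower in H3K9me3, where 9.33% of carried codes were. In H3K36me2 T025 was called higher and T028 lower, where 1.33% and 4% were.

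In the comparisons with wide scatter members were called in both directions at once. In H3K4me2 T015, T017 and T019 were called higher, where 25.3% of carried codes were, and T018, T025, T026, T028 and T029 lower, where 37.3% were. In H4K8ac T015, T016, T027 and T028 were called higher and the other 6 members lower, where 24% and 33.3% were. In H4K20me1 T016 and T027 to T029 were called higher and T015, T017, T018 and T025 lower, where 28% and 37.3% were. In H3K14ac T016, T018, T028 and T029 were called higher and T019 lower, where 22.7% and 13.3% were.

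Release against thymidine called 10 of 69 member values higher and 17 lower, beside 12.4% and 16.8% of all carried codes. CENP-A fell over 2-fold at T027 alone, where 2.86% of carried codes fell. The H3K9me3 difference changed by −0.61 (−0.73 to −0.48), close to the value against colcemid, and T016 was called lower, where 9.33% were. In H3K36me2 T025 was called higher, where 1.33% were. In H3K14ac T019 was called lower, where 6.76% were.

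The same H4K8ac, H3K4me2 and H4K20me1 release libraries gave most of the calls against thymidine. In H4K8ac T015, T016 and T028 were called higher and all other members but T027 lower, where 27% and 32.4% of carried codes were. In H3K4me2 T015 and T017 were called higher and T018, T025, T026, T028 and T029 lower, where 13.5% and 37.8% were. In H4K20me1 T016, T019, T027 and T028 were called higher and T017, T018 and T025 lower, where 32% and 26.7% were.

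With siKAT7 4 of 70 member values were higher and 6 lower, beside 4.01% and 5.15% of carried codes. For H4K8ac the near run fell against the domain by −0.77 (−0.97 to −0.57), past its yardstick of −0.45 and with an SD of 0.29 between domain codes. The fall lay mainly at T025 and T026, with 64 and 145 reads in siControl and 22 and 69 in siKAT7 cells. T027, T028 and T029 had 138, 159 and 227 reads in siControl and 153, 170 and 205 in siKAT7 cells. The libraries held 25793 and 23712 CenU reads. T025 was the member called lower in this mark, where 5.33% of carried codes were. H3K36me2 fell in both runs, by −0.39 (−0.54 to −0.24) and −0.46 (−0.58 to −0.34), with yardsticks of −0.02 and 0.11, with no member past 2-fold and −0.52 at T019 and 0.41 at T029 as its extremes. H4K20me1 rose in the near run by 0.56 (0.48 to 0.65) and T025 was called higher, where 10.7% were. T025 had 325 reads of 125346 in siControl and 533 of 65933 in siKAT7 cells. T026, T027, T028 and T029 went from 824, 747, 749 and 1589 reads to 579, 468, 253 and 653. Much of the near-run value thus came from T025, and the run without it was not computed.

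In H3K14ac, the mark linked to KAT7, siKAT7 cells had T026, T027 and T029 called higher and T019, T025 and T028 lower, where 12% and 14.7% of carried codes were, so the near run did not move as one. Part of these calls came with the siControl library. In H3K14ac siControl differed from untreated cells by −2.04 at T026 and 1.54 at T028, and siKAT7 against untreated cells gave −0.38 at T026 and −0.34 at T028, neither past 2-fold. The calls at T019 (−1.31), T025 (−1.21), T027 (1.10) and T029 (1.09) were also made against untreated cells. In H3K4me2 T028 was called lower, where 2.67% were, but siControl was itself higher there by 1.13, and siKAT7 gave 0.14 (−0.01 to 0.28) against untreated cells. H3K9me3 of the near run changed by 0.08 (−0.02 to 0.18) and no member was called, with 0.45 at T028 and −0.60 at T015 as its extremes. In CENP-A T018 was the one member called lower (−1.83), where 8.11% of carried codes were. The siControl library had 11 reads on it and was higher than untreated cells by 1.66, and siKAT7 gave −0.13 (−0.39 to 0.13) against untreated cells.

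With siHJURP 4 of 68 member values were higher and 11 lower, beside 9.07% and 9.27% of carried codes. Against the domain the reads of the near run fell in all 6 marks past the yardstick. The falls were −1.43 for H4K8ac, −1.06 for H3K4me2, −0.94 for H4K20me1, −0.45 for H3K9me3 and −0.34 for H3K36me2, each with a counting interval off 0. H3K14ac fell by −1.74, and its domain codes scattered with an SD of 3.01. The H3K4me2 value rested on 2 to 9 reads per near-run code in siHJURP cells, with an SD of 0.89 between domain codes. With summed reads the H4K8ac fall shrank to −0.06 and the H3K9me3 fall to −0.19. As levels, set against the other marks, the H3K9me3 difference between near run and domain was 1.83 in siHJURP and 1.18 in siControl cells. That of H3K36me2 was 1.88 and 1.09, so both marks were higher with siHJURP on this measure. In the same order H4K20me1 gave −1.22 and −1.28, H3K4me2 0.46 and 0.53, H4K8ac −1.28 and −0.75, and H3K14ac −1.66 and −0.76. In H4K20me1 the members called lower in the near run were T026 (−4.11) and T027 (−1.51). In the far run H4K20me1 alone gave a fall past the yardstick (−0.54, −0.65 to −0.43), which rested on T019 (−4.35), since the far run without T019 gave 0.35.

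By code, siHJURP cells had T025 and T026 called lower in H4K8ac and T019, T026 and T027 in H4K20me1, where 13.3% of carried codes were lower in each mark, and T018 higher in H4K20me1, where 6.67% were. T029 was called lower in H3K9me3, where 2.67% were. T028 was called lower in H3K4me2 and T017 higher, where 1.39% and 8.33% were, in a library of 1772 CenU reads. In H3K14ac T015 and T016 were called higher and T019, T025 and T028 lower, where 41.3% and 29.3% were. T028 was called lower in CENP-A, with 8 members deep enough to test and 3.33% of carried codes called. The siControl library had 16 CENP-A reads on it. Against untreated cells T028 gave −0.49 (−1.04 to 0.05) in CENP-A, −0.55 in H3K4me2 and −0.91 in H3K14ac, none of them past 2-fold. T016 in H3K14ac (0.91) and T018 in H4K20me1 (0.81) were not past it either. The other siHJURP calls were also made against untreated cells. No member passed 2-fold in H3K36me2, with 0.36 at T017 and −0.61 at T028 as its extremes.

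In the yardstick itself, siControl against untreated cells, 3 of 70 member values were higher and 2 lower, beside 4.95% and 3.24% of carried codes. T018 was higher in CENP-A, T028 in H3K4me2 and H3K14ac, and T027 and T026 were lower in these marks in turn. No member was called in the other 4 marks.

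CENP-A of the same codes differed between the lines. In HAC 4-2 all 15 codes were above 0.1% of CenU reads and together took 30.3% of them. T020, not carried by HAC 4-65, was the highest at 5.01% (95% exact binomial interval 4.71% to 5.32%), followed by T019 at 3.52% (3.27% to 3.78%), and T016 was the lowest at 0.321%. T015 to T017 had 0.321% to 0.457% and T018 had 1.33%, so the step to high shares lay between T017 and T019 there. The median domain code of HAC 4-2 had 1.77%.

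In HAC 4-49, 12 of the 15 codes were above 0.1% of CenU reads. T015 to T020 had 0.173% to 0.378%, T021 to T023 had at most 0.0731%, and T024 stood at 2.42% (2.38% to 2.46%), so that the share stepped up between T023 and T024. T025 to T029 had 0.649% to 2.18%, with T026 the highest, beside 1.25% at T030.

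HAC 3-6 had high shares at T025 (3.02%), T027 (3.69%) and T028 (2.69%), and the other 12 codes were at 0.0336% to 0.0918%. T026 and T029, at 0.0658% and 0.0534%, were among these. In HAC 1-8 T019, T020 and T026 just passed 0.1%, the highest at 0.118%, or 8 reads of 6759, and T022 and T028 had 0 reads, which allows a share of up to 0.0444% by a floor of 3 counts and 0.0546% by the exact interval. HAC 1-20 had at most 0.0384% at any of the 15 codes. T025, among the poorest in CENP-A in HAC 4-65, had 2.64% in HAC 4-2 and 3.02% in HAC 3-6. T019 was high in HAC 4-2 (3.52%) and low in HAC 4-49 (0.176%) and HAC 3-6 (0.0569%). Copy number and CENP-A density cannot be told apart in these lines, for which only CENP-A was used here.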

How the data were processed

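ChIP DNA of HT1080 cells carrying a HAC was amplified by competitive PCR and sequenced. The authors deposited counts of matched reads per position code, made with cutadapt 4.0, Bowtie and SAMtools per the labels, with no genome build involved, and a last row of unmatched reads (6.39% to 12.7% in HAC 4-65), which was left out. Each of the 102 libraries was a group of 1, so no count model was fitted and no SD between replicates exists. PCR reads are not independent molecules, so intervals and floors (3 counts) cover counting error only.

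Log2 values were taken after adding 0.5 reads. Shares have exact 95% Clopper-Pearson intervals, and changes have delta-method Poisson intervals. Codes with at least 20 reads in 1 of 2 libraries were tested for a 2-fold change. The 6 treated conditions were compared by exact two-sided sign-flip permutation tests, adjusted by Benjamini-Hochberg over 21 tests, and untreated cells were left out of them. All 15 codes were accounted for, and the carried members past 2-fold are named for the antibodies described. Calculations used Python 3.11.15, numpy 2.4.6, pandas 2.3.3 and scipy 1.17.1, and the scripts were tested on simulated data. The members, runs and reference codes were chosen with earlier results of these data known. Code sequences were taken from the supplementary tables of the study by code number. Other ways of scaling, thresholds and conditions left out were tried.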

Additional observations from a re-analysis of the deposited data

How the results depend on the processing

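No paired analysis was possible because each group was 1 library and the labels give no replicate numbers, so no replicate could be left out either. With 13 of 21 tests at the smallest p, the adjusted p was 0.0505. Under 3 alternatives more tests reached the smallest exact permutation p, and the adjusted p of each of those became 0.0469, by the construction of the adjustment. With 1 average of all marks and conditions as the copy-number proxy this held for near run minus domain in CENP-A (−0.93), H4K8ac (−1.24), H4K20me1 (−0.67), H3K36me2 (0.86) and H3K9me3 (1.04), for far run minus domain in CENP-A (−2.30), H4K8ac (−0.97), H4K20me1 (−1.45), H3K36me2 (0.96) and H3K9me3 (1.33), and for the slopes of CENP-A (0.50), H3K4me2 (−0.16), H3K36me2 (−0.27) and H3K9me3 (−0.46). With only the H3 marks as the proxy it held for near run minus domain in CENP-A (−1.36), H3K14ac (−0.96), H4K8ac (−1.67), H4K20me1 (−1.10) and H3K9me3 (0.81), for far run minus domain in CENP-A (−2.95), H3K14ac (−1.15), H4K8ac (−1.62), H4K20me1 (−2.10) and H3K9me3 (0.91), and for the slopes of CENP-A (0.69), H3K14ac (0.39), H4K8ac (0.68) and H3K9me3 (−0.35). With 5 reads added it held for near run minus domain in CENP-A (−0.78), H4K8ac (−1.33), H3K36me2 (1.00) and H3K9me3 (1.22), for far run minus domain in CENP-A (−2.11), H3K4me2 (0.47), H4K8ac (−1.11), H4K20me1 (−1.69), H3K36me2 (1.09) and H3K9me3 (1.54), and for the slopes of CENP-A (0.38), H4K8ac (0.57), H3K36me2 (−0.32) and H3K9me3 (−0.56). Without the thymidine or the release condition (the latter chosen after seeing the data) no test could pass, since 5 conditions allow no exact permutation p below 0.0625. The codes were chosen with these data known, so none of these alternatives is an independent check either.

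With the median carried code in place of the midpoint, 3 members were above it in untreated and 4 in siHJURP cells. With summed reads the change of near run minus domain in H3K9me3 was −0.79 for release against colcemid, −0.78 against thymidine, 0.20 with siKAT7 and −0.19 with siHJURP. The H4K8ac change for release against colcemid turned to 0.0017 and the H4K20me1 yardstick to −0.0026, while H4K8ac with siHJURP was −0.06 and with siKAT7 −0.53. Relative to NCU reads (the codes of the non-centromeric units) the calls of members were 0 higher and 23 lower for colcemid against thymidine, and 8, 13 and 9 higher with siKAT7, siHJURP and siControl. The share of all carried codes called on this scale was not computed, so these counts are no result about the members in particular. The cause was not tested. Another limit of 0.3% for carried codes and a domain of T030 to T046 changed no call of the tests. Untreated cells as the reference of single codes and the far run without T019 were chosen after seeing the data. Depth limits the siControl, thymidine and siHJURP CENP-A values and the siHJURP H3K4me2 values, among others, with a single CENP-A read at T025 in siControl cells.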
